A study of Mus musculus with 18 samples.

Results

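The resting heart of control mice is described here from 3 arrays, out of 18 in the series. These mice had received PBS alone, the vehicle of the bacterial endotoxin LPS used in other groups, and hearts were collected 3 h later. They are the controls of a study of mice that lack Kir6.1, which Kcnj8 encodes and which forms the pore of a potassium channel of blood vessels. The labels number the hearts 1 to 3 and the design text speaks of 3 mice per genotype. They do not state that each number is a separate animal, so the standard deviations (SD) may be partly technical. Strain, age, sex and the origin of the control mice are not given in the labels used here, nor is a Cre line, transgene or pooling of animals. No comparison with another group was made.

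Members were the 3 array columns, and each gene was represented by its brightest single-symbol probe set on them, which gave 18193 genes. Values are log2 signals from RMA, which subtracts background, brings the arrays to one scale and combines the probes of each probe set. The 3 arrays shared an array lot and a hybridization day. Their medians over all probe sets were 4.87, 4.89 and 4.85. RNA quality was gauged by the control probe sets for Gapdh and Actb, whose 3' signal exceeds the 5' signal when RNA is degraded: the excess averaged 0.35, 0.33 and 0.32 on replicates 1, 2 and 3. Across the 18193 genes the pairwise Pearson correlations were 0.996 to 0.997, and in the closest pair, replicates 1 and 2, the differences still had an SD of 0.172, so no array was a copy of another.

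A working heart contracts without pause. Its muscle cells are filled with sarcomeres, in which myosin thick filaments pull on actin thin filaments, and with mitochondria, which burn mainly fatty acids. Ion channels time each beat, and calcium released from the sarcoplasmic reticulum switches the filaments on. Blood vessels, fibroblasts and resident immune cells lie between the muscle cells and give the bulk tissue the rest of its RNA.

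The ranking is one of signal, not of molecules. Probe sets differ in how well they bind and label their target. Of 9010 genes with several probe sets, 4077 (45.2%) had probe sets more than 2 log2 units apart, with a median range of 1.75. Myoglobin shows the size of this: Mb had the highest signal of all genes on one probe set (mean 14.25) and 5.37 on another. A gene's place is therefore a description of its brightest probe set, and a low place does not show that a transcript is scarce. Fewer cells of a type and less RNA per cell cannot be told apart in this bulk tissue.

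Contractile and mitochondrial genes took up much of the top of the ranking, and no gene of the channel, vascular or immune lists was among the 100 highest. Of the 100 highest genes 20 were on the contractile lists and 43 on the mitochondrial lists. These names are broad. The contractile lists include calcium handling and energy buffer genes, among them Mb, Ckmt2 and the mitochondrial carrier Slc25a4. The mitochondrial lists include genes of fatty acid uptake, among them Lpl and Fabp3. The vascular lists include 14 fibroblast and matrix genes. Their median was 10.89, against 9.01 for endothelium and 8.02 for smooth muscle and pericytes. The counts and the medians of the 5 groups of lists depend on this assignment. The means of all genes ran from 2.87 to 14.25 with a median of 5.86, and 237 genes (1.3%) lay at or above 12. The lists of mitochondrial genes had a median of 12.72, contractile genes 11.73, vascular genes 8.395, channel genes 7.756 and immune genes 5.833. The immune median was thus close to the median of all genes.

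To judge which signals stood above background, the 38 olfactory receptor genes on the array were used, since the heart is not known for them. The 95th percentile of their means was 4.83. Of all genes 11898 (65.4%) lay above it. The share was 60 of 63 contractile genes, 97 of 97 mitochondrial genes, 28 of 33 channel genes, 61 of 63 vascular genes and 90 of 124 immune genes. Of 409 genes on these 38 lists, 29 had no probe set named for them alone here and were not analysed. Of the channel lists, 9 of 42 genes were not analysed here.

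**Figure D1:**
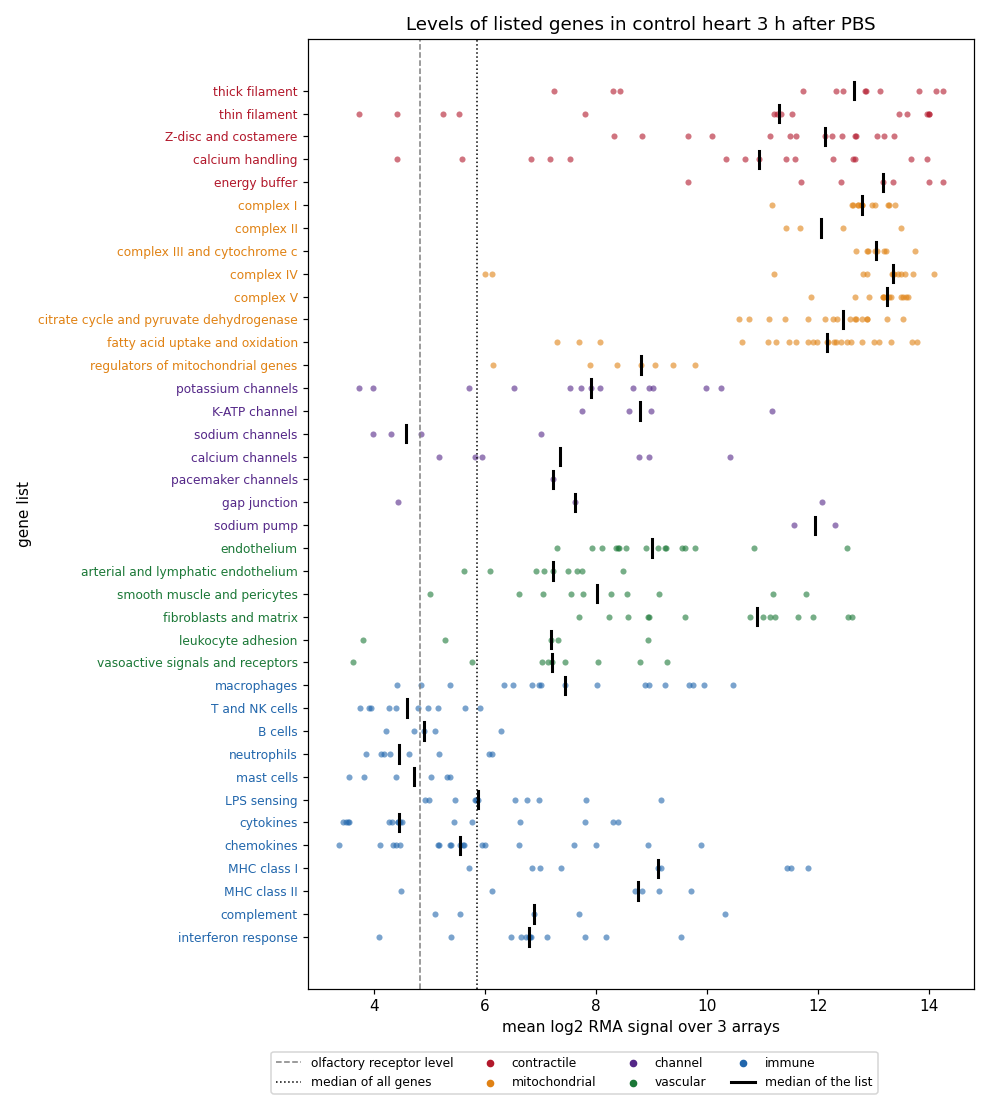
Mean log2 RMA signal over the 3 arrays (x axis) of each represented gene, by gene list (y axis), coloured by domain, with a black bar at the median of each list; the dashed line marks the olfactory receptor level, 4.83, and the dotted line the median of all genes, 5.86. Mitochondrial and contractile lists sit at the right, and the lists of lymphocytes, neutrophils, mast cells and cytokines lie around the dashed line.

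The 30 highest genes were led by proteins of oxygen storage, contraction and energy supply. Mb, the oxygen-binding protein of muscle, was at 14.26, 14.24 and 14.26 on replicates 1, 2 and 3, and Myl2, the ventricular regulatory light chain of myosin, at 14.26, 14.24 and 14.23. The arrays of these genes overlapped, so their order is not set. Myl3, the ventricular essential light chain, followed at 14.12, 14.11 and 14.13. Next came Cox5b of respiratory complex IV (mean 14.09), the cardiac troponin I gene Tnni3 (14.00), cardiac actin Actc1 (14.00) and Slc25a4 (13.99), which exchanges ATP and ADP across the mitochondrial membrane. Of these 30 genes 12 were contractile and 13 mitochondrial by the lists. The others were Tpt1, Fth1 (ferritin heavy chain), ND5 (a complex I subunit encoded in mitochondrial DNA), Slc25a3 (the mitochondrial phosphate carrier) and Nppa, the gene of atrial natriuretic peptide.

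At the top the arrays were nearly superimposable. The SD of the 100 highest genes had a median of 0.0285, against 0.0968 over all genes, and 97 of the 100 were among the 100 highest on each array taken alone. Normalization that gives arrays nearly the same distribution and signals close to the upper end of the scale both hold such values together, and their part was not tested. Nppa was the exception among the 30, at 13.65, 13.62 and 13.28. Just inside the 100 were Cox7a1 (12.80) and Ndufs8 (12.80), and just outside Gnas (12.79) and Pdhb (12.79), so the edge of the 100 is no step.

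**Figure D2:**
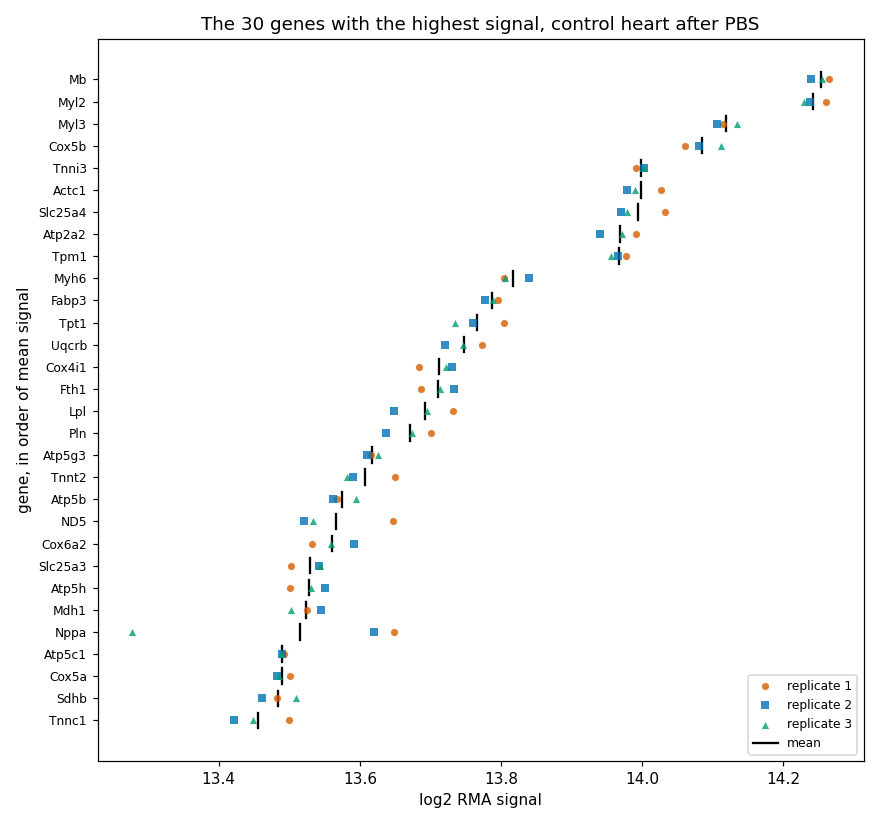
Log2 RMA signal (x axis) of the 30 genes with the highest mean (y axis, in order), one symbol per array and a bar at the mean. For most genes the symbols nearly coincide, whereas Nppa lies at 13.28 on replicate 3 and at 13.62 and 13.65 on the others.

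Most thick filament genes were bright. The lowest were Myh7b, Myh7 and Mybphl, which is also on the atrial list and had a mean of 8.44. Myh6, the fast cardiac myosin heavy chain of the adult mouse heart, was at 13.80, 13.84 and 13.81. Myh7, the slow form of the fetal mouse heart, was at 8.29, 8.41 and 8.24, and Myh7b at 7.08, 7.35 and 7.30. Another probe set of Myh6 was at 8.63, 8.67 and 8.53, so its distance from Myh7 depends on the probe set. Titin (Ttn, the molecular spring of the sarcomere) had a mean of 13.12 ± 0.03 (SD, n = 3 arrays here and below), myosin-binding protein C (Mybpc3) 12.84 ± 0.006 and the M-band proteins Myom2 and Myom1 12.86 ± 0.04 and 11.73 ± 0.04. All 12 genes of the list lay above the olfactory receptor level, and 8 were at or above 12.

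The thin filament list split by muscle type. Tnni3, Actc1, the tropomyosin gene Tpm1 (13.97), the cardiac troponin T gene Tnnt2 (13.61) and the troponin C gene Tnnc1 (13.46) were all among the 30 highest. The skeletal forms were lower. The slow skeletal troponin T gene Tnnt1 had a mean of 7.81 ± 0.09. Slow skeletal troponin I (Tnni1), which fetal hearts use, had a mean of 5.25 ± 0.33, fast troponin I (Tnni2) 5.54 ± 0.09, and the fast forms Tnnc2 and Tnnt3, at 4.43 and 3.73, lay below the olfactory receptor level. Skeletal actin (Acta1), which fetal and loaded hearts also express, was in between and varied, at 11.71, 11.34 and 10.95. Tropomodulin (Tmod1), leiomodin 2 (Lmod2) and nebulette (Nebl), which set or cap the length of the thin filament or anchor it, were at 11.53, 11.20 and 11.25.

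Z-disc genes reached the top as well. Csrp3, a muscle LIM protein, had a mean of 13.37 ± 0.08, the calsarcin gene Myoz2 13.19 ± 0.05 and the small heat shock protein Cryab 13.07, with the latter at 13.07 on every array. Actn2 (the actin cross-linker), Tcap (the titin cap) and Ldb3 lay between 12.44 and 12.69. Desmin (Des), the intermediate filament of muscle, was at 11.61 ± 0.05. Myot, better known from skeletal muscle, was the lowest of the 15, at 8.51, 8.10 and 8.36.

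Calcium handling genes spanned most of the scale. Atp2a2, the pump that refills the sarcoplasmic reticulum, was at 13.99, 13.94 and 13.97, and Pln, phospholamban, the pump's inhibitor, at 13.70, 13.64 and 13.67. The calcium-binding store proteins Casq2 and Hrc were at 12.67 ± 0.03 and 12.26 ± 0.06 and the release channel Ryr2 at 11.42 ± 0.02. The skeletal forms Atp2a1 and Casq1 were at 5.59 and 7.18. Slc8a1, the sodium-calcium exchanger, had 7.53 ± 0.11 and Fkbp1b, which binds Ryr2, 4.42, below the olfactory receptor level. Both are well-known cardiac genes, and how far their probe sets set their place was not tested. Sln, sarcolipin, an inhibitor of the same pump in the atria, was at 11.90, 11.83 and 11.02 and is taken up again below.

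Of the energy buffer list, 5 of 7 genes were at or above 12. One of these, Fhl2 (12.42), is a LIM domain protein and no energy buffer. The creatine kinases of muscle cytosol and muscle mitochondria, Ckm and Ckmt2, had means of 13.35 ± 0.05 and 13.16 ± 0.05. The brain form Ckb had 9.66 ± 0.03, and adenylate kinase Ak1 11.69 ± 0.04.

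The promoters of these genes were searched for a motif of muscle genes. The CArG box, the binding motif of serum response factor, a regulator of muscle genes, was searched in the 250 bases before each gene start of the RefSeq table (build GRCm38.p6), where it reads alike on both strands. It was found in 10 of 70 promoters of contractile genes (14.3%), which belong to 8 of the 51 genes with a promoter, namely Actc1, Acta1, Myl3, Myl7, Myom1, Nebl, Ldb3 and Fhl2. Of all 32851 promoters listed, 482 (1.47%) held one, and of the promoters of all represented genes 1.23%. None of 94 mitochondrial, 28 channel, 50 vascular or 109 immune promoters did. Such a match is a description of letters and not a site. Fhl2 and Ldb3 count with 2 starts each. To show the box in its setting, 3 contractile promoters with it in capitals and 2 mitochondrial promoters without it are given, each as the 100 bases before the start, 5′ to 3′ on the gene's strand.
Actc1 (chr2:114052876-114052975, minus strand): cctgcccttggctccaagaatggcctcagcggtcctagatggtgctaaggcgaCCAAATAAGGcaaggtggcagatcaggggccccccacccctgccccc
Myl3 (chr9:110763578-110763677, plus strand): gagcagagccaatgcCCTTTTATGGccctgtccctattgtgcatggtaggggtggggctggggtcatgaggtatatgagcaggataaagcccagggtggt
Myl7 (chr11:5898783-5898882, minus strand): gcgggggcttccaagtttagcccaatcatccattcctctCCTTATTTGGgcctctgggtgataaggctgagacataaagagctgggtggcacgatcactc
Cox5b (chr1:36691387-36691486, plus strand): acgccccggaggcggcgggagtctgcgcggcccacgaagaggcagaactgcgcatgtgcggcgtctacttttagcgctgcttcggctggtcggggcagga
Atp5b (chr10:128083207-128083306, plus strand): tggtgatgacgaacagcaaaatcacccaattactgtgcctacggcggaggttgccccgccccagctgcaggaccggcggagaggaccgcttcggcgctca

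Respiratory chain genes were high as a whole and close together. All 5 complexes had list medians at or above 12: 12.79 for complex I, 12.06 for complex II, 13.04 for complex III with cytochrome c, 13.35 for complex IV and 13.23 for complex V. By gene symbol 85 subunit genes were represented, 48 of them among the 100 highest and 2 at or below the olfactory receptor level. The median SD of complex I was 0.021, the smallest of these 5 lists.

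Within complex IV the forms of muscle and of other tissues were both seen. Cox6a2 and Cox8b, isoforms of heart and skeletal muscle, had means of 13.56 ± 0.03 and 13.36 ± 0.04, and Cox7a1, another muscle isoform, 12.80 ± 0.04. Their widely expressed partners Cox6a1, Cox8a and Cox7a2 were at 12.88, 11.20 and 13.43. Cox4i1 was at 13.68, 13.73 and 13.72, and its lung isoform Cox4i2 at 6.08, 5.98 and 5.95. Cox7c, a widely used subunit, was at 6.02, 5.87 and 6.51. In complex V the catalytic beta subunit Atp5b had 13.57 ± 0.02 and Atp5c1 13.49, with an SD of 0.0024.

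The citrate cycle and fatty acid oxidation were nearly as high. The citrate cycle and pyruvate dehydrogenase list had a median of 12.45 over 16 genes, with malate dehydrogenases Mdh1 (13.52) and Mdh2 (13.24) at its head and Dlat (10.58) at its foot. For fatty acids the median was 12.17 over 24 genes. Fabp3, the fatty acid binding protein of heart, was at 13.80, 13.78 and 13.79, and Lpl, the lipase that frees fatty acids from circulating lipoproteins, at 13.73, 13.65 and 13.70. The trifunctional protein gene Hadhb (13.31), Hadh (13.10), Acadm (13.01) and Acadl (12.79) followed. The liver isoform Cpt1a (7.30), the uncoupling protein Ucp3 (7.69), Slc27a1 (8.07) and Acads (10.63) were the lowest. Of the factors that control such genes, the coactivator Ppargc1a was highest, at 9.54, 9.74 and 10.09, and Nrf1 lowest, at 6.15 ± 0.19.

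Ion channel genes were spread over the scale, and most lay far below the contractile genes. The gap junction gene Gja1, which couples ventricular muscle cells, was at 12.32, 11.84 and 12.07, and Fxyd1, phospholemman, a regulator of the sodium pump, at 12.29, 12.36 and 12.27. These alone of the 33 were at or above 12. Cacna2d1, an auxiliary subunit of calcium channels, had 10.41 ± 0.06, and the pore of the L-type calcium channel, Cacna1c, 8.82, 8.94 and 9.10.

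Repolarizing potassium channels were led by Kcnk3, a background channel, at 10.31, 10.32 and 10.12, and Kcnip2, the accessory subunit of the transient outward current, at 9.99 ± 0.05. Kcnh2 and Kcnq1, pores of the rapid and slow delayed rectifiers, had 9.03 ± 0.10 and 8.96 ± 0.07. Their ranges overlapped, although Kcnh2 was the higher on each array (9.01, 9.14 and 8.94 against 8.95, 9.04 and 8.895). Signals of different probe sets do not rank their transcripts. Kcnd2, the main pore of the mouse transient outward current, was at 8.07 ± 0.10 and Kcnd3 at 6.52 ± 0.12. Kcnj2, the pore of the inward rectifier, was at 3.81, 3.65 and 3.75, below the olfactory receptor level, as were Kcna4 (3.99), the gap junction gene Gja5 of atria and conduction system (4.44), and the sodium channel genes Scn3b (4.32) and Scn10a (3.99). Calcium channels of pacemaker and atrial cells, Cacna1g, Cacna1h and Cacna1d, had means of 5.94, 5.83 and 5.17, and Hcn2 of 7.23.

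The channel of the study, K-ATP, opens when ATP falls. In these control hearts its vascular pore gene Kcnj8 was at 8.52, 8.58 and 8.70 and its muscle pore gene Kcnj11 at 8.99, 9.10 and 8.88, while the receptor subunits Abcc9 and Abcc8 had means of 11.17 ± 0.06 and 7.76 ± 0.05. Abcc9 also had probe sets at 9.50 and 8.84, and Kcnj11 another at 5.93, so the order of the subunits depends on the probe set.

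**Figure D3:**
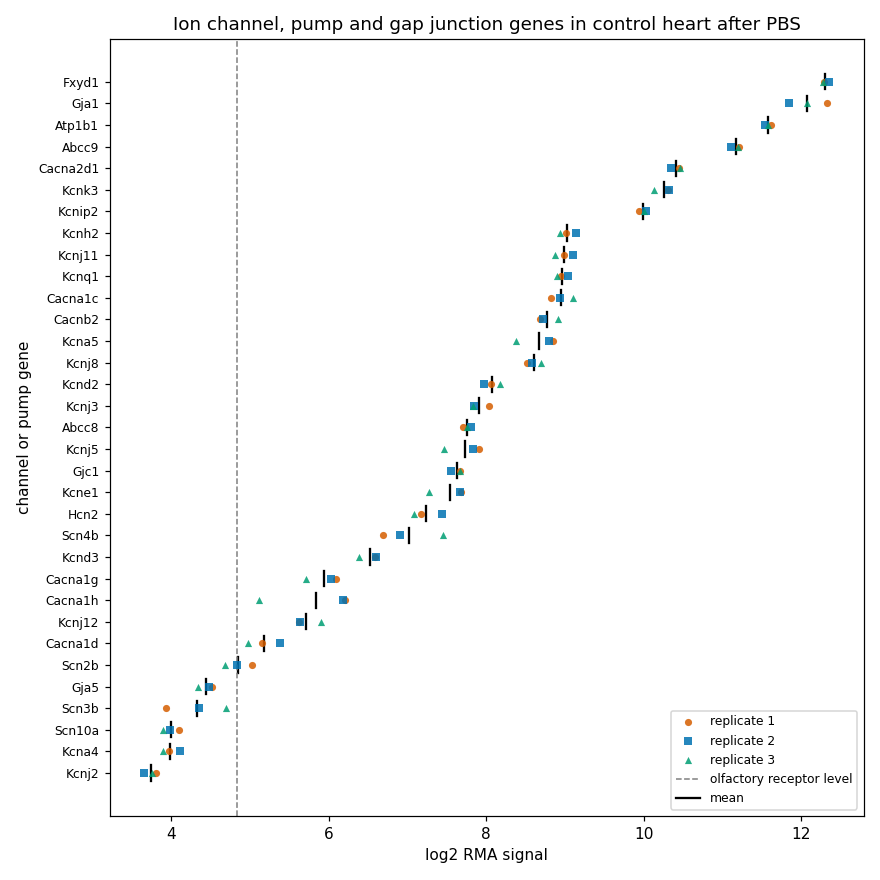
Log2 RMA signal (x axis) of the 33 represented channel, pump and gap junction genes (y axis, in order of mean), one symbol per array, with a bar at the mean and a dashed line at the olfactory receptor level, 4.83. Gja1 and Fxyd1 have means above 12, 5 genes lie below the dashed line, and Cacna1h, Kcna5, Kcnj5 and Kcne1 are lowest on replicate 3.

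Vascular genes were mostly in the upper part of the ranking. Endothelial genes had a median of 9.01 over 16 genes, all above the olfactory receptor level. Fabp4, the fatty acid binding protein of capillary endothelium and fat, was at 12.63, 12.43 and 12.51, and the water channel Aqp1 at 10.87, 10.76 and 10.91. The endoglin gene Eng (9.79), the VEGF receptor gene Kdr (9.60), Egfl7 (9.55) and Esam (9.27) followed. The lowest were Robo4 (7.29), Tie1 (7.94), the nitric oxide synthase Nos3 (8.11) and Pecam1 (8.36).

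The fibroblast and matrix list had a median of 10.89. The smooth muscle and pericyte list had 8.02, below the 9.01 of the endothelial list, although 2 of its genes were bright. These were Rgs5, a pericyte gene, at 11.90, 11.75 and 11.71, and smooth muscle actin Acta2 at 11.18 ± 0.19. Of the other genes of contractile smooth muscle, Myh11 and Cnn1 were the lowest of the list, at 6.61 ± 0.06 and 5.01 ± 0.06. Tagln, Smtn and Mylk were higher, at 8.56 ± 0.08, 8.27 ± 0.16 and 7.78 ± 0.09. Among matrix genes gelsolin (Gsn), decorin (Dcn) and Sparc had means of 12.61, 12.55 and 11.91, and the collagens Col3a1, Col4a1 and Col1a2 11.63, 11.22 and 11.01. Matrix genes were not even between arrays, since 12 of 14 were highest on replicate 1 and 11 of 14 lowest on replicate 3, against 5693 and 6366 of all 18193 genes. Col1a1 showed it most, at 8.87, 8.68 and 8.20.

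Genes that vessels switch on in inflammation were low or moderate. The selectins Sele and Selp, which slow leukocytes, were at 3.80 ± 0.035 and 5.29 ± 0.12, with Sele below the olfactory receptor level. Icam1 was at 7.31, 7.16 and 7.11 and Vcam1 at 7.37, 7.21 and 7.36. Icam2, which resting endothelium carries, was higher on its probe set, at 8.93 ± 0.11. Of the vasoactive genes, Ramp2 (9.28), part of the adrenomedullin receptor, and the angiotensin receptor Agtr1a (8.79) led, and endothelin 1 (Edn1) had 5.77 ± 0.24.

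Among the immune lists, MHC class I, MHC class II and macrophages had the highest medians, 9.126, 8.764 and 7.449. Of 17 macrophage genes 16 lay above the olfactory receptor level. Lysozyme (Lyz2) was at 10.77, 10.37 and 10.28, the receptor of the macrophage growth factor Csf1r at 9.95 ± 0.11, and the complement genes C1qb and C1qa at 9.74 ± 0.12 and 9.68 ± 0.03. Ccr2, which marks monocyte-derived cells, was at 4.42 ± 0.13, below that level. The next lowest of the macrophage list were Timd4 (4.84), Cx3cr1 (5.38) and Mertk (6.35). Of the genes of MHC class I and its peptide loading, B2m (11.82), H2-D1 (11.52) and H2-K1 (11.44) were the brightest, although H2 genes resemble each other and their probe sets may share signal. The class II gene H2-Aa and the invariant chain Cd74 had 9.71 ± 0.19 and 9.13 ± 0.15, and 4 of the 6 class II genes were highest on replicate 3, where 6398 of all 18193 genes were. Complement genes were led by the inhibitor Serping1 (10.32 ± 0.07). All 5 represented were highest on replicate 1, as were 12 of the 17 macrophage genes, against 5693 of all 18193 genes.

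Lymphocyte, mast cell and granulocyte lists had medians of 4.462 to 4.91, close to the olfactory receptor level. Of 10 genes of T and NK cells 4 lay above the olfactory receptor level, of 5 B cell genes 3, of 8 neutrophil genes 3 and of 6 mast cell genes 3, against 65.4% of all genes. The T cell receptor genes Cd3e and Cd3g were at 5.64 ± 0.18 and 4.28 ± 0.31, and the B cell gene Ms4a1 at 4.22 ± 0.14. Above the median of all genes were Ighm, the heavy chain of IgM (6.29 ± 0.18), Cd4 (5.92 ± 0.14), and S100a8 and S100a9, described below.

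Genes of the LPS sensing list mostly had modest signals in these hearts, which received no LPS. The list also holds signalling genes and Tlr2, Tlr3 and Tlr9, receptors of other microbial molecules. All 11 represented genes lay above the olfactory receptor level, against 65.4% of all genes, with a median of 5.88. The kinase gene Irak1 was the brightest, at 9.17 ± 0.05. Ly96 and Tlr9 (4.93) lay below the level that vomeronasal receptor genes gave in its place, 5.162. Tlr4, the LPS receptor, was at 6.01, 5.78 and 5.84, its partner Ly96 at 5.06, 4.86 and 5.07, and the adaptor Myd88 at 7.88, 7.70 and 7.87. Of 16 cytokine genes 6 lay above the olfactory receptor level. The classical inflammatory cytokines were divided. Tnf (4.44), Il6 (3.50), Il1a (3.54) and Ifng (3.55) lay below that level, and Il1b lay above it, at 5.71, 5.54 and 5.11. Il15 (8.39), Csf1 (8.31), Tgfb1 (7.80), Il33 (6.64) and Il18 (5.78) were above it too. Cxcl12, a homing chemokine of stromal cells, had the highest signal of 19 chemokines, at 9.86, 9.91 and 9.89.

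Markers of tissues that could be cut out with the heart varied by tissue, against 65.4% of all genes above the olfactory receptor level. None of 5 thymus genes lay above the olfactory receptor level. Of 6 lung genes 3 did, led by Sftpb (6.08 ± 0.22), while the club cell gene Scgb1a1 was at 3.91. Of 7 fat genes 5 did, and the brightest were Cidea (9.35 ± 0.11), a lipid droplet protein of brown fat, and Car3 (8.98, 9.34 and 8.19), a carbonic anhydrase of fat and muscle. Adipoq, the fat hormone adiponectin, was at 5.93, 6.45 and 5.45, and Ucp1, the uncoupling protein of brown fat, at 4.81, 6.15 and 4.78, so both were highest on replicate 2. Of 8 skeletal muscle genes 4 did, namely Mybpc2 (7.83 ± 0.17), Pvalb (5.49), the fast myosin Myh2 (5.22) and Mylpf (5.12), while the fast myosins Myh4 and Myh1 were at 3.68 and 3.83. Of 6 liver genes 4 did, led by Ahsg (6.02), and of 3 red cell genes 1, Alas2 (7.61). The cardiac forms of myosin, troponin and actin given above were bright on all 3 arrays, which fits the heart label. Xist, which is transcribed from the inactive X chromosome, was at 10.98, 11.04 and 10.94, and the Y-linked genes Eif2s3y, Kdm5d and Uty lay between 3.22 and 3.89 in mean.

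Most genes hardly differed between the 3 hearts. The SD had a median of 0.0968 and a 95th percentile of 0.242, and it declined with signal from 0.125 for genes between 5 and 6 to 0.0265 for genes at or above 13. Between arrays, 10 to 14 genes differed by more than 1 log2 unit in each pair. Of the 20 genes with the largest SD among genes at or above the median signal, 10 were highest on replicate 1 and 15 were lowest on replicate 3. Of the first 60 such genes, 28 and 30 were, while 20 were highest on replicate 3 and 17 lowest on replicate 1. Among all 18193 genes, 5693 were highest on replicate 1 and 6366 lowest on replicate 3. With 3 arrays an SD is itself imprecise, and the genes with the largest SDs are described without a test.

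**Figure D4:**
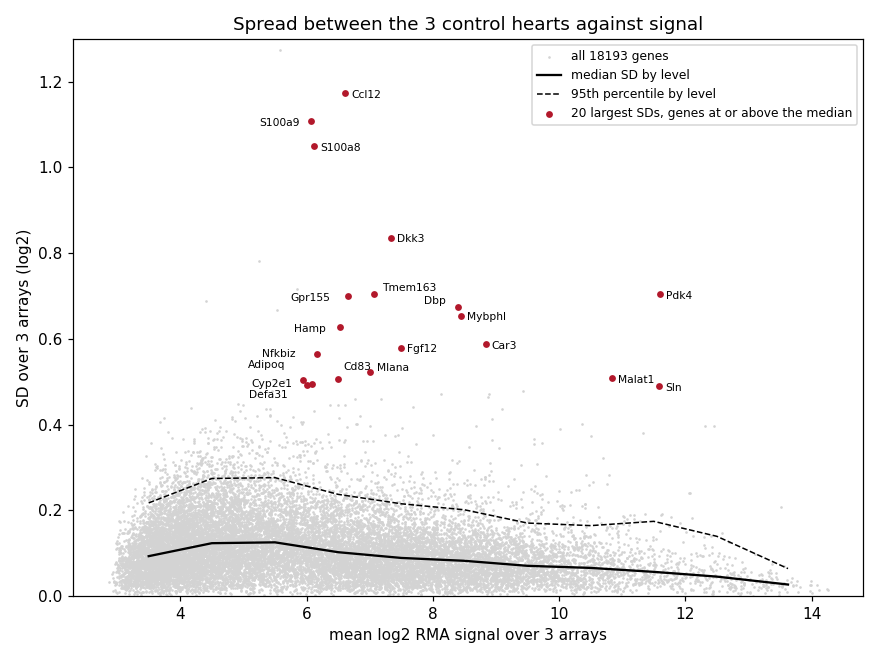
SD over the 3 arrays (y axis, log2) against mean log2 RMA signal (x axis), one point per gene, with the median SD (solid) and the 95th percentile (dashed) by level. The 20 genes in red have the largest SDs among genes at or above the median signal, led by Ccl12, S100a9 and S100a8 at 1.05 to 1.17, and Pdk4 and Sln stand out among bright genes; a grey point at a mean below the median signal lies higher still.

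The first 3 of these 20 genes belong to inflammation, and each was highest on replicate 1. Ccl12, a chemokine that attracts monocytes, was at 7.82, 6.52 and 5.48 on replicates 1, 2 and 3. S100a9 and S100a8, the paired alarmins of neutrophils, were at 7.21, 6.01 and 4.998 and at 7.21, 6.04 and 5.12. The 3 genes thus held the same order of arrays. Nfkbiz, a regulator of NF-kB target genes, was at 6.79, 5.69 and 5.996, and Cd83 at 7.07, 6.24 and 6.16. Cxcl2, a neutrophil attractant below the median in mean, was at 5.20, 4.03 and 3.99, and Tlr2, a receptor of bacterial lipoproteins, at 5.46 ± 0.48 in the same order of arrays as S100a8. Of 19 chemokines 11 were highest on replicate 1 and 13 lowest on replicate 3, and of 12 interferon response genes 9 and 9. Of all 18193 genes, 5693 were highest on replicate 1 and 6366 lowest on replicate 3. Other immune lists differed from this: of 16 cytokine genes 6 were highest on replicate 1 and 7 lowest on replicate 3. Of 11 genes of the LPS sensing list 4 and 3 were.

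The other neutrophil genes were dim. Mpo, Elane, Ltf, Camp and Cxcr2 lay below the olfactory receptor level in mean, with SDs of 0.03 to 0.20, and Csf3r was at 5.29, 5.24 and 5.02. Csf3r and Elane (4.34, 4.25 and 3.95) ran in the same order of arrays as S100a8, and Mpo, Camp, Ltf and Cxcr2 did not. Whether more neutrophils or more RNA per cell stands behind the S100a8 values was not tested.

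The same promoters were searched for a TATA box in its usual place. The letters TATAAA, on either strand within bases -45 to -16 before the start, were in 13 of 109 immune promoters (11.9%) and 5 of 50 vascular promoters, against 2.76% of the promoters of all represented genes and none of 96 promoters of the 100 highest genes. A CArG box can contain these letters. Ccl12 and S100a8, shown because they were among the 3 genes with the largest SDs from the median signal up, held one 31 and 30 bases before the start (capitals), again in the 100 bases before the start.
Ccl12 (chr11:82101745-82101844, plus strand): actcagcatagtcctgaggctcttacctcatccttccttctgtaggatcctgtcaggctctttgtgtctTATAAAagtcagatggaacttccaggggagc
S100a8 (chr3:90668971-90669070, plus strand): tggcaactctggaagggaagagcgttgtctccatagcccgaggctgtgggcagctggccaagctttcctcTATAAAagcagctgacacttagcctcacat

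Replicate 3 was lowest for 6 of 6 atrial genes, against 6366 of all 18193 genes. The trait was not theirs alone. It held for 11 of 14 matrix genes, 6 of 7 fat genes, 5 of 6 liver genes and 5 of 6 lung genes. Myl7, the atrial regulatory light chain, was at 12.71, 12.64 and 11.99, and Myl4, the atrial essential light chain, at 12.51, 12.58 and 11.86. Mybphl was at 8.85, 8.78 and 7.69, and Sln and Nppa, given above, ran the same way, as did Bmp10 at 5.24, 5.20 and 4.95. For each of the 6, replicates 1 and 2 lay closer to each other than either lay to replicate 3. The ventricular light chains Myl2 and Myl3 had SDs of 0.016 and 0.015, and Irx4, a ventricular transcription factor, was at 7.48, 7.56 and 7.34.

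Several channel genes were also lowest on replicate 3. This held for 9 of 13 potassium channel genes, against 6366 of all 18193 genes. They include Kcnj5 (7.91, 7.83 and 7.46), a subunit of the acetylcholine-gated channel of the atria, Kcna5 (8.85, 8.79 and 8.37) and Kcne1 (7.68, 7.67 and 7.27). Kcnj3, the partner of Kcnj5, was at 8.04, 7.85 and 7.83, so its replicates 2 and 3 lay together. The T-type calcium channel gene Cacna1h was at 6.20, 6.18 and 5.11. Kcnd2 and Kcnj12 went the other way, highest on replicate 3. Among the 20 most variable genes, Dkk3 (7.87, 7.76 and 6.37), Tmem163 (7.39, 7.57 and 6.27), Hamp (6.79, 6.98 and 5.81), Fgf12 (7.77, 7.90 and 6.83) and Mlana (7.36, 7.25 and 6.40) also had replicate 3 far below the others. How much atrium each sample held is not given in the labels used here, and its part in these values was not tested.

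Clock genes set replicate 1 apart from the others. The core clock is a loop in which Arntl with Clock or Npas2 drives Per and Cry, which feed back on it, and output genes such as Dbp. Dbp was at 7.63, 8.67 and 8.90, Per3 at 5.98, 6.74 and 6.77, and Ciart, a repressor in the loop, at 5.07, 5.99 and 5.88. The 4 genes highest on replicate 1 were these drivers and Nr1d1, a repressor that they drive, which was at 8.38, 8.28 and 8.35. Arntl was at 6.89, 6.06 and 6.18, Npas2 at 5.12, 4.81 and 4.81, and Clock at 8.16, 7.90 and 7.98. The other 10 of 14 clock genes were lowest on replicate 1, against 6099 of all 18193 genes. The time of day of collection is not given in the labels used here, and its part was not tested.

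Fatty acid genes varied in a further way. Pdk4, the kinase that shuts off pyruvate oxidation and is raised by fasting, was at 11.57, 10.90 and 12.31. Ucp3 was at 7.57, 7.33 and 8.18 in the same order of arrays. Angptl4, another gene known to respond to fatty acids and chosen after its values were seen, was at 6.87, 6.37 and 7.17. Of 24 genes of fatty acid uptake and oxidation 16 were highest on replicate 3 and 15 lowest on replicate 1, most by small amounts and in another order than Pdk4, Ucp3 and Angptl4, which were lowest on replicate 2, with a median deviation of 0.071 on replicate 3. Of all 18193 genes, 6398 were highest on replicate 3 and 6099 lowest on replicate 1. The lean was not that of fatty acid genes alone. Of 16 citrate cycle and pyruvate dehydrogenase genes, 10 were highest on replicate 3 and 8 lowest on replicate 1. Of 13 complex IV genes, 2 and 4 were. Feeding is not described in the labels used here.

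Immediate early genes, which are switched on within minutes by handling or injury, were detectable in these hearts. Dusp1 was at 10.22, 10.27 and 10.60, Jun at 8.56, 8.89 and 9.37, Egr1 at 8.10, 8.18 and 8.55, and Fos at 6.91, 6.62 and 7.23. Of 15 genes 8 were highest on replicate 3, against 6398 of all 18193 genes, and 1, Fosb (3.65), lay below the olfactory receptor level.

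**Figure D5:**
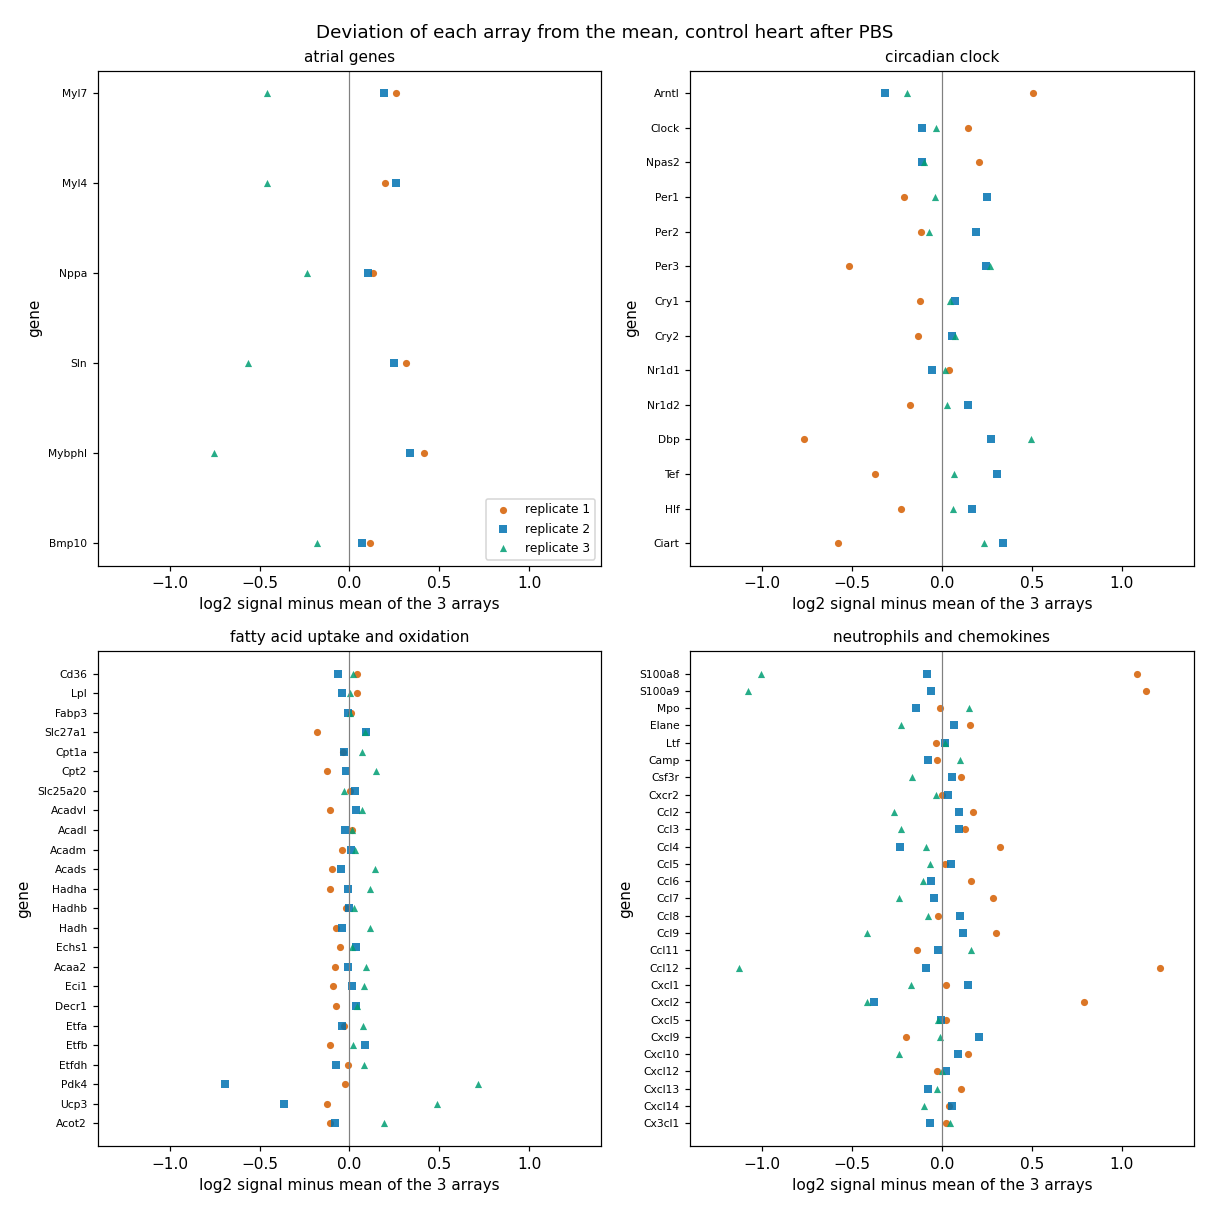
Deviation of each array from the mean of the 3 (x axis, log2), for each gene (y axis) of 4 groups of lists: atrial, clock, fatty acid, and neutrophil with chemokine genes. Atrial genes have replicate 3 at the left, Dbp, Per3 and Ciart have replicate 1 at the left with Arntl at the right, Pdk4 and Ucp3 have replicate 3 at the right, and S100a8, S100a9, Ccl12 and Cxcl2 have replicate 1 at the right.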

How the data were processed

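RNA of 3 heart samples of control mice after PBS was measured on single-colour Affymetrix Mouse430_2 arrays. The authors deposited log2 signals per probe set made with RMA, per the submitters' processing notes. The RMA version and its settings: not given in the sources used here. RMA pulls dim signals towards a floor. Other fields used are text entries (lot and hybridization day) of the arrays' experiment records, deposited beside the values. Every value column was one of the 18 arrays.

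The 64 Affymetrix controls among 45101 probe sets were dropped. The platform annotation names 1 gene for 34945 probe sets, more than 1 for 932 and no gene for 9160. RefSeq's gene table held the Entrez identifier of 34754, and their symbols were current. Each gene was given its probe set with the highest mean over the 3 arrays. Means, SDs and ranks were computed with pandas 2.3.3 in Python 3.11.15, tested on simulated data. The number of arrays limits the precision. There is 1 group, so no test was run.

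There were 55 gene lists with 541 genes, of which 498 were represented; newer symbols were traced through synonyms where they led to 1 gene. The lists were chosen with earlier results of these data known. A rule set which genes could be named: the 30 highest, the 20 with the largest SD from the median signal up, all members of lists of 15 or fewer, and the 6 highest and 4 lowest of longer lists, with probe sets of these and of the K-ATP genes. Not all of them are named, and the choice among them was made with their values seen. Outside the rule, Angptl4, Tnf, Slc2a4 and the unlisted genes of the closing section were chosen after their values were seen. Alternatives were other choices of probe set, other scalings between arrays, vomeronasal receptors as background and leaving out each array.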

Additional observations from a re-analysis of the deposited data

How the results depend on the processing

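The order of the 5 domain medians (mitochondrial, contractile, vascular, channel, immune) was the same under all 8 settings tried for it, and 60 of 82 recomputed summary values stayed within the spread between arrays or, for counts, within 1.5 times. Among these settings, centring the arrays on their medians left each gene's mean over the arrays as it was by construction. Its order of medians, its medians and its counts could not change, although they are included above as unchanged. They are no check, and only its median SD, 0.0985, could move. The choice of probe set moved most of the recomputed values that did not stay within these limits. With the mean of all probe sets of a gene, 129 genes instead of 237 were at or above 12, the median SD was 0.0836, and the medians were 11.59 (mitochondrial), 9.92 (contractile), 7.58 (vascular), 7.01 (channel) and 5.42 (immune). It kept 61 of the 100 highest genes and moved 28 of 54 named levels by more than their SD. Without probe sets ending in _s_at, _x_at or _a_at, which leaves 16591 genes, 129 genes were at or above 12 and the medians were 12.26, 11.50, 8.07, 7.45 and 5.46 in the same order. With probe sets ranked over all 18 arrays the mitochondrial median was 12.69, and the 100 highest genes were the same. Leaving out each array in turn gave a median SD of 0.0724 to 0.0817, contractile medians of 11.71 to 11.87, channel medians of 7.73 to 7.869 and vascular medians of 8.287 to 8.435. An SD of 2 arrays has a lower median by construction; for the other values the cause was not tested. With vomeronasal receptors as background, 10861 genes lay above it. No paired analysis was possible because a single group is described and no test compares groups. Signal near the floor limits what can be said of dim genes, and signal near the ceiling what can be said of the brightest.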

Other observations

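Glycolytic genes were bright in these control hearts. The list had a median of 11.61 over 16 genes, all above the olfactory receptor level, and 7 were at or above 12. Lactate dehydrogenase B (Ldhb), the heart form, was at 13.35, 13.37 and 13.37, Aldoa at 13.28, 13.30 and 13.28, and the muscle enolase Eno3 at 12.93, 13.01 and 13.01. The insulin-regulated glucose transporter Slc2a4 was at 10.47, 10.81 and 10.70 (named after its values were seen), and the general transporter Slc2a1, the lowest of the list, at 7.51, 7.49 and 7.36.

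Transcription factors of the heart lay in the middle and upper part of the scale, with a median of 8.573 over 11 genes. Mef2a was at 10.68, 10.77 and 10.68, Mef2d at 9.60 ± 0.06, Hand2 at 9.26 ± 0.13, Tbx20 at 9.04 ± 0.15, Nkx2-5 at 8.88 ± 0.09 and Gata4 at 8.02 ± 0.10, while Hand1 had 5.37 ± 0.06. All 11 lay above the olfactory receptor level. Genes of the intercalated disc, where muscle cells join, were led by Dsp (11.99 ± 0.07), Cdh2 (11.01 ± 0.19) and Pkp2 (10.66 ± 0.12), and all 7 were lowest on replicate 2, where 5728 of all 18193 genes were.

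Of the 100 highest genes 32 were on no list. They include 14 more subunits of the respiratory chain by symbol, such as Ndufa13 (13.30 ± 0.02) and Atp5l (12.94 ± 0.04), and 6 of the 100 were ribosomal protein genes by symbol, among them Rps29 (13.28 ± 0.04) and Rplp2 (13.23 ± 0.03). The others include Chchd10 (13.34 ± 0.06), Bsg (12.95 ± 0.07), Crip2 (12.92 ± 0.03) and Eef1a2 (12.88 ± 0.06), chosen after their values were seen.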
